A study of Drosophila melanogaster with 5 samples.

Results

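The vacuolar ATPase (V-ATPase) genes of Drosophila melanogaster were followed on testis ribosomes. Members were all rows of the deposited table whose gene symbol starts with Vha. The table lists 12847 genes, and 33 of them met this rule. Of these 33 genes, 13 encode subunits of the cytosolic V1 sector, 18 encode subunits of the membrane V0 sector and 2 encode accessory proteins.

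RNA was taken from testes of adult males of the Batumi laboratory strain, and the labels name no transgene or other allele in either group. Their age is labelled 1-2, with no unit. Ribosomes were pelleted from extracts of 1000 testes, and the 5 libraries fall into 2 groups. In 3 libraries the RNA came from ribosomes pulled down through βNACtes (βNACtes IP), a testis form of the β-subunit of NAC, which binds nascent chains at the ribosome exit, and in 2 control libraries it came from the ribosome extract without precipitation (total ribosomes). The precipitation thus selects ribosomes that carry a subunit which the study places in germ cells, while total ribosomes hold those of all cells in the dissected tissue. The deposited table has 1 mean per gene and group, so no replicate error, library depth or test can be given for any value.

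The V-ATPase is a rotary proton pump. Its V1 sector hydrolyses ATP in a ring of A and B subunits and turns a central rotor. The rotor turns a ring of proteolipids in the membrane, the V0 sector, and protons pass between this ring and the large subunit a into the lumen of lysosomes, endosomes and secretory vesicles, or out of the cell at the apical side of some epithelia. Flies have several genes for many of the subunits, and the paralogs can differ in the tissue that uses them. The samples here are all from testis, so restriction of a paralog to testis cannot be read from them.

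Each value is an FPKM, a fragment count scaled to transcript length and to the mapped fragments of the library, as averaged by the authors over the libraries of a group. The difference of the βNACtes IP from total ribosomes is the log2 ratio of the former to the latter, with 0.1 FPKM added to each value. This scale understates the change of genes with low values. The median of this difference over the 9793 genes with a mean of both columns of at least 1 FPKM was 0.73. The relative log2 ratios below are taken from that median, and a gene is called higher at 1 or above and lower at −1 or below. With TPM scaling (each value as a share of its column's sum) the median of all genes was 1.55 instead. A ratio that is not taken from the median of all genes therefore depends on the scaling, and taking it from that median is itself a choice. The share of a paralog in its subunit does not depend on the scaling.

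By symbol or by the identifier of the annotation, 8 of 9 germline and spermatocyte markers were found, at 347 FPKM in sum in total ribosomes and 1162 FPKM in the βNACtes IP, and none of these 8 is listed at 0. Most of this difference lay in dj and bol, with 172 and 1017 FPKM in sum, and the other 6 summed to 175 and 145 FPKM. The relative log2 ratios of the 8 had a median of −0.13, with 4 below 0, and reached 2.22 in dj. The sperm tail gene dj was listed at 82.3 FPKM in total ribosomes and 638 FPKM in the βNACtes IP, and the meiotic arrest gene aly at 84.0 and 17.3 FPKM. For the accessory gland, a somatic secretory organ of the male tract, 4 of 5 markers were found, at 35486 FPKM in sum in total ribosomes and 7905 FPKM in the βNACtes IP. For all 4 genes the relative log2 ratio was below −1, from −3.40 to −1.54, and the part of accessory gland RNA in the values of the Vha genes was not tested. For muscle, 4 of 4 markers summed to 124 and 122 FPKM, and for cyst and hub cells 4 of 5 summed to 7.23 and 17.1 FPKM, with tj at 0 in total ribosomes. Act57B made up most of the muscle sums, at 101 and 80.8 FPKM. The relative log2 ratios of the muscle markers ran from −1.06 to 1.02, with 2 above 0 and 2 below. Those of the cyst cell markers zfh1 and eya were 1.35 and 1.63, at low levels in total ribosomes (0.975 and 1.58 FPKM), and that of Fas3 was −1.03. The mean of zfh1 reached 1 FPKM only through the βNACtes IP. So did that of bam (0.895 and 1.26 FPKM), which counts in the germline median of −0.13.

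Transcripts for every subunit of the pump were present in both groups, and in 5 of the 8 subunits with paralogs the leading gene, the one with the highest level, was another in each group. In subunits A and F this rested on near ties, and by share of reads (value times exonic length) the count was 4 of 8. The order of levels was opposite for 6 of 31 pairs of paralogs (19.4%), against 20.9% of all pairs of genes. Together the 33 genes made up 1894 FPKM in total ribosomes and 1845 FPKM in the βNACtes IP. Of the 32 genes with a mean of at least 1 FPKM, 3 were called higher (9.38%) and 13 lower (40.6%), with a median relative log2 ratio of −0.49. Over all genes with such a mean, 26.4% were called higher and 29.2% lower, and the median is 0 by construction. With TPM scaling the median of the 32 genes was 1.07, with 17 higher and 1 lower, against 62.1% higher and 8.75% lower over all genes. With the columns as deposited 8 were higher and 5 lower, against 43.6% and 18.3% of all genes, and with upper-quartile scaling 5 were higher and 9 lower, against 32.1% and 25.4%. The Vha genes thus held a smaller share of higher calls than all genes in each of these scalings. Their share of lower calls was larger with centring and upper-quartile scaling, but smaller as deposited and with TPM scaling. In each of these scalings their median lay below that of all genes (0.24 against 0.73 as deposited, −0.25 against 0.25 with upper-quartile scaling). The extracts hold ribosomes of all cells in the dissected tissue, and which cells supplied the RNA of a gene was not measured.

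The 3 genes called higher were Vha36-2, Vha14-2 and Vha68-3, each a paralog of a V1 subunit. The scalings as deposited, to TPM and by upper quartile raise all genes and so cannot undo such a call. Relative to genes of like length or of like mean value and with a pseudocount of 1 the 3 genes were also called higher. Without a filter on low values 2 Vha genes were called higher, and Vha68-3, the lowest of the 3, was not. Among the 13 called lower, Vha36-1, Vha14-1, Vha16-3, VhaAC39-1 and VhaAC39-2 stayed below 0 in all 7 settings of scaling and pseudocount. The other 8 (Vha68-2, Vha13, Vha100-1, Vha100-2, Vha16-4, VhaPPA1-2, VhaM9.7-b and VhaM8.9) came to lie above 0 with TPM scaling, which raises all genes. Of the 16 calls, 5 lay within 0.1 of the threshold: Vha68-3 at 1.06, Vha68-2 at −1.05, Vha100-2 at −1.05, VhaPPA1-2 at −1.08 and VhaM9.7-b at −1.04.

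**Figure D1:**
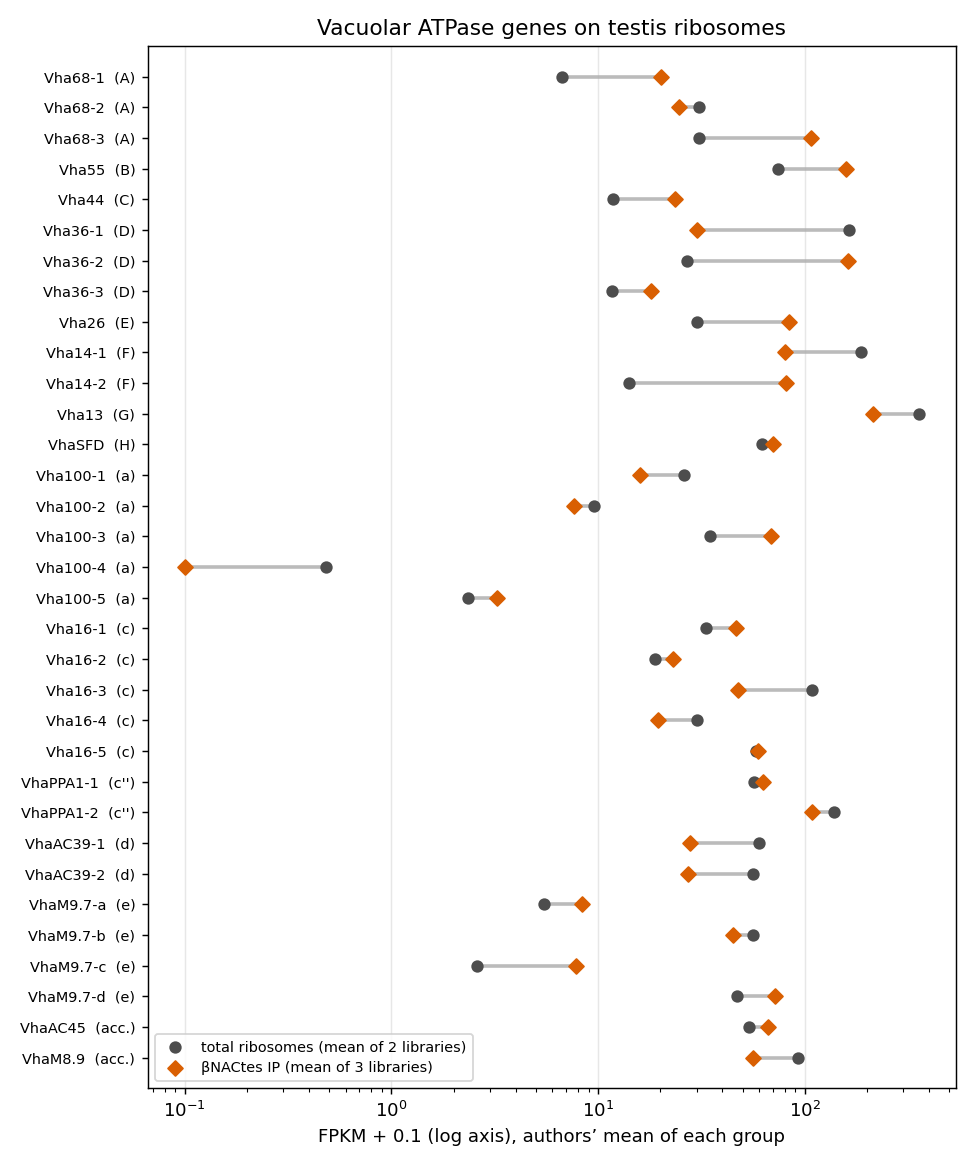
Level of each Vha gene in total ribosomes (grey circles) and in the βNACtes IP (orange diamonds), as FPKM + 0.1 on a log axis, with the subunit in parentheses (acc., accessory protein). Each symbol is the authors' mean of a group, so there are no error bars. Vha36-1 and Vha36-2 exchange places, and Vha13 is the highest gene in both groups.

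Subunits D and F of the central rotor showed the widest differences between paralogs. Subunit D is the shaft that turns inside the A and B ring. Vha36-1 was listed at 165 FPKM in total ribosomes and at 30.1 FPKM in the βNACtes IP, with a relative log2 ratio of −3.18. This was the lowest ratio of the members, and 4.40% of all genes with a mean of at least 1 FPKM had a lower one. Vha36-2 was listed at 26.7 FPKM in total ribosomes and at 161 FPKM in the βNACtes IP, with a relative log2 ratio of 1.86, the highest of the members, and 88.4% of all such genes had a lower one. Vha36-1 had 6.16 times the level of Vha36-2 in total ribosomes, and Vha36-2 had 5.35 times the level of Vha36-1 in the βNACtes IP.

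Summed over its paralogs, subunit D was nearly level in FPKM, with 203 in total ribosomes and 209 in the βNACtes IP, whereas on the TPM scale the sums were 141 and 260. Within this sum Vha36-1 took 81.1% in total ribosomes and 14.4% in the βNACtes IP, and Vha36-2 took 13.2% and 77.0%. The third paralog, Vha36-3, stayed the smallest, at 11.6 FPKM (5.72% of the sum) and 17.9 FPKM (8.55%). The log2 ratios of Vha36-1 and Vha36-2 differed by 5.03, and 6.71% of all pairs of genes with a mean of at least 1 FPKM differed by as much. The encoded proteins differ in size: the longest annotated product has 246 residues for Vha36-1, 249 for Vha36-3 and 373 for Vha36-2 (Ensembl annotation of BDGP6, used for all gene features here). Both Vha36-1, with 1 exon, and Vha36-2, with 2 exons, lie on arm 2R but are not neighbours, and Vha36-3 lies on the X chromosome.

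Subunit F binds subunit D in the rotor, and its pair of genes differed in the same manner. Vha14-1 was listed at 187 FPKM in total ribosomes and 80.1 FPKM in the βNACtes IP (relative log2 ratio −1.95). Vha14-2 was listed at 13.97 FPKM and 81.3 FPKM (1.80). Vha14-1 was thus 13.4 times as high as Vha14-2 in total ribosomes, and the levels were nearly equal in the βNACtes IP, where Vha14-2 was 1.02 times Vha14-1. The share of Vha14-2 in the sum was 6.97% in total ribosomes and 50.4% in the βNACtes IP, while the sum itself was 201 and 161 FPKM, or 140 and 201 on the TPM scale. Their log2 ratios differed by 3.75, and 14.9% of all pairs of genes differed by as much. The products have a similar size, 124 residues for Vha14-1 and 129 for Vha14-2, and the genes lie on different chromosomes (2R and 3R).

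The catalytic subunit A holds the nucleotide that is hydrolysed. Vha68-2 was listed at 30.8 FPKM in total ribosomes and 24.6 FPKM in the βNACtes IP, and Vha68-3 at 30.7 FPKM and 107 FPKM. Both were therefore at the same level in total ribosomes, at 45.2% and 45.1% of the sum, whereas Vha68-3 held 70.5% and Vha68-2 16.3% in the βNACtes IP. Vha68-1 was the lowest in both groups, at 6.58 FPKM (9.65%) and 20.0 FPKM (13.2%), with a relative log2 ratio of 0.86. Vha68-1 and Vha68-3 had similar log2 ratios, which differed by 0.20. Those of Vha68-2 and Vha68-3 differed by 2.11, and 39.8% of all pairs of genes differed by as much. Vha68-2 and Vha68-3 are adjacent genes on arm 2L on the same strand, and only Yip1d1 separates Vha68-3 from Vha68-1, which lies on the other strand. The longest product of Vha68-3 has 743 residues, against 614 for both Vha68-1 and Vha68-2.

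Subunit B, the partner of A in the ring, is encoded by Vha55 alone. Vha55 was listed at 73.9 FPKM in total ribosomes and 159 FPKM in the βNACtes IP, with a relative log2 ratio of 0.37. These levels lay close to the sum over the A paralogs, 68.1 FPKM and 151 FPKM. For subunits that alternate in the same ring, the levels of transcripts were thus similar in each group, though the A sum rested on 3 genes.

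**Figure D2:**
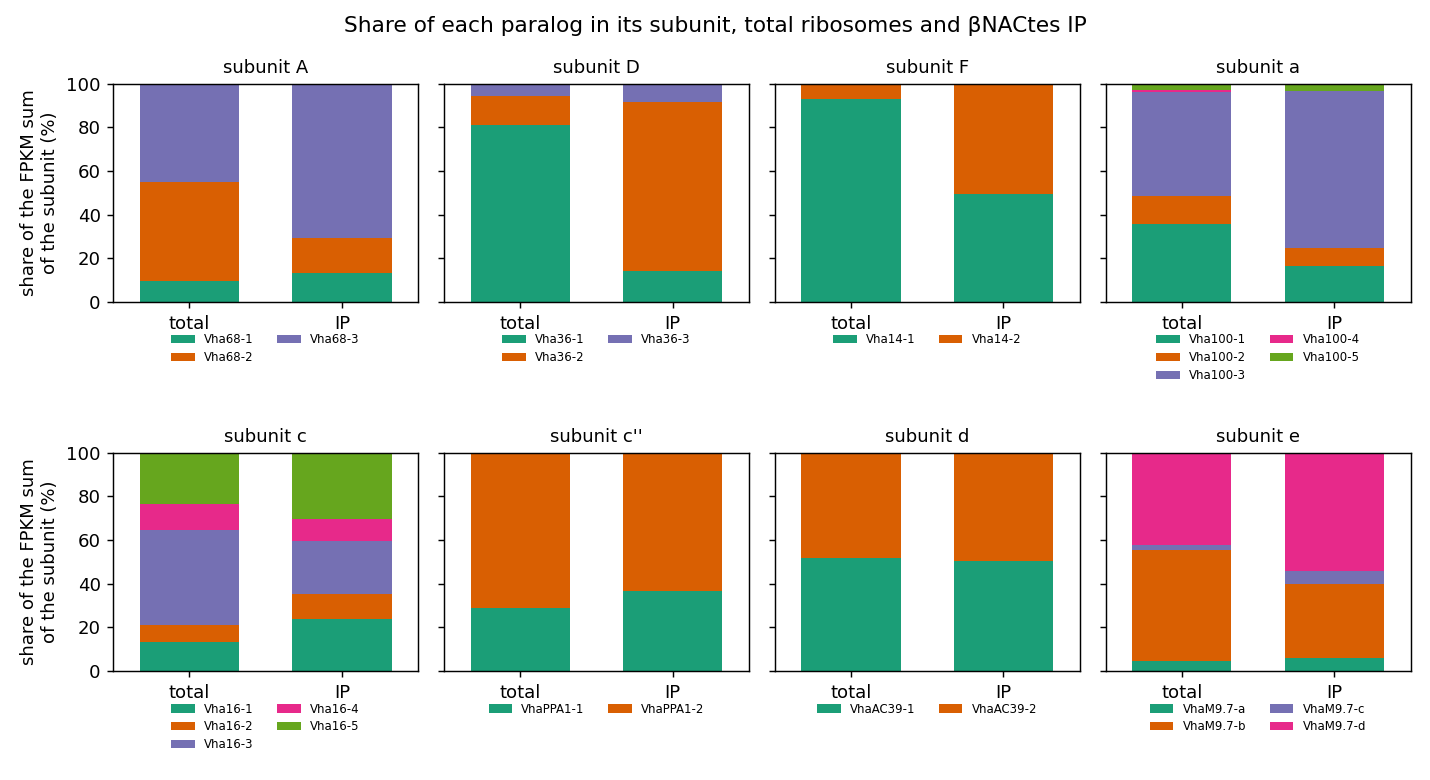
Share of each paralog in the FPKM sum of its subunit (vertical axis, percent), for the 8 subunits with more than 1 gene, in total ribosomes (left bar) and in the βNACtes IP (right bar). Vha36-2 goes from 13.2% to 77.0% of subunit D and Vha14-2 from 6.97% to 50.4% of subunit F, whereas VhaAC39-1 is at 51.6% and 50.4% of subunit d.

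The stalk subunits E, G, C and H tie the ring to the membrane sector and have 1 gene each. Vha13, which encodes G, had the highest level of all members in both groups, 356 FPKM in total ribosomes and 214 FPKM in the βNACtes IP (relative log2 ratio −1.46). Its partner in the peripheral stalk, subunit E, is encoded by Vha26, which was listed at 30.1 and 83.5 FPKM (0.74). The levels of these partners thus lay closer together in the βNACtes IP than in total ribosomes. Vha44, the gene of subunit C, had the lowest level of all 13 subunits in both groups, 11.7 and 23.6 FPKM (0.27). VhaSFD, which encodes subunit H, was listed at 61.7 and 70.1 FPKM (−0.55).

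The large V0 subunit a contains the paths by which protons reach and leave the ring, and in yeast its isoforms direct the pump to different compartments. Vha100-3 was the leading gene for it in both groups, at 34.8 FPKM in total ribosomes (47.7% of the sum) and 68.7 FPKM in the βNACtes IP (72.1%). Vha100-1, known for its role at fly synapses, was second, at 26.0 FPKM (35.7%) and 15.9 FPKM (16.6%). The relative log2 ratio was 0.25 for Vha100-3 and −1.44 for Vha100-1, and 49.6% of all pairs of genes differed by as much as these. Vha100-2 followed with 9.48 and 7.58 FPKM, and Vha100-5 with 2.25 and 3.16 FPKM. Vha100-4 was listed at 0.385 FPKM in total ribosomes and at 0 in the βNACtes IP, and no ratio is given for it. The order of the 5 genes was therefore the same in both groups. Vha100-3 is annotated with 1 exon and a product of 904 residues, the longest of the family, while Vha100-1 has 13 exons in its longest transcript and a product of 855 residues.

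The proteolipid ring is formed by subunits c and c″. None of the 5 c genes held most of the sum in either group. In total ribosomes Vha16-3 led with 108 FPKM (43.5%), ahead of Vha16-5 with 58.1 FPKM (23.4%), Vha16-1 with 33.2 FPKM, Vha16-4 with 30.2 FPKM and Vha16-2 with 18.8 FPKM. In the βNACtes IP Vha16-5 led with 59.4 FPKM (30.4%), ahead of Vha16-3 with 47.3 FPKM (24.2%), Vha16-1 with 46.3 FPKM (23.7%), Vha16-2 with 23.0 FPKM and Vha16-4 with 19.5 FPKM. Vha16-3 had a relative log2 ratio of −1.92, the lowest of the V0 genes, while Vha16-5 had nearly the same FPKM in both groups (−0.70).

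Vha16-3 and Vha16-2 are neighbours on arm 3L on the same strand, and their log2 ratios differed by 1.48. An annotated antisense RNA covers 503 of the 595 exonic bp of Vha16-2 (84.5%), so if reads were counted without strand its value may include reads from that RNA. The products of Vha16-1, Vha16-2, Vha16-3 and Vha16-4 have 155 to 159 residues, and that of Vha16-5 has 193.

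Of the c″ genes, VhaPPA1-2 was above VhaPPA1-1 in both groups. VhaPPA1-2 was listed at 138 FPKM in total ribosomes and 109 FPKM in the βNACtes IP, and VhaPPA1-1 at 56.7 and 63.1 FPKM. The share of VhaPPA1-2 was 70.9% in total ribosomes and 63.3% in the βNACtes IP. VhaPPA1-2 is annotated with 1 exon and VhaPPA1-1 with 3 in its longest transcript. Both products have 212 residues, and RpS5b lies between the genes on arm 3R.

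Subunit d links the rotor to the ring. Its pair of genes had the least different shares of the 8 families. VhaAC39-1 was listed at 59.9 FPKM in total ribosomes and 27.7 FPKM in the βNACtes IP, and VhaAC39-2 at 56.1 and 27.2 FPKM. The share of VhaAC39-1 was 51.6% and 50.4%, and the log2 ratios differed by 0.07. Both were called lower, with relative log2 ratios of −1.84 and −1.77. Subunit d thus had the lowest ratio of all 13 subunit sums (−1.81), going from 116 FPKM to 54.9 FPKM, and from rank 6 among the subunits in total ribosomes to rank 12. The genes lie on different chromosomes (X and 3R), and both products have 350 residues. Whether reads of such similar genes were divided between them by the authors' software is not given in the sources used here.

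The small membrane subunit e was supplied mainly by VhaM9.7-b and VhaM9.7-d. VhaM9.7-b was listed at 55.9 FPKM in total ribosomes (50.6% of the sum) and 45.1 FPKM in the βNACtes IP (33.9%). VhaM9.7-d was listed at 46.8 FPKM (42.3%) and 72.0 FPKM (54.1%), so that the order of both was opposite in the groups. VhaM9.7-a, at 5.36 and 8.22 FPKM, and VhaM9.7-c, at 2.50 and 7.74 FPKM, remained small parts of the sum.

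Both accessory proteins bind V0. VhaAC45 was listed at 53.6 FPKM in total ribosomes and 66.4 FPKM in the βNACtes IP (relative log2 ratio −0.42). VhaM8.9, which the annotation names ATP6AP2, was listed at 92.4 and 56.4 FPKM (−1.44).

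**Figure D3:**
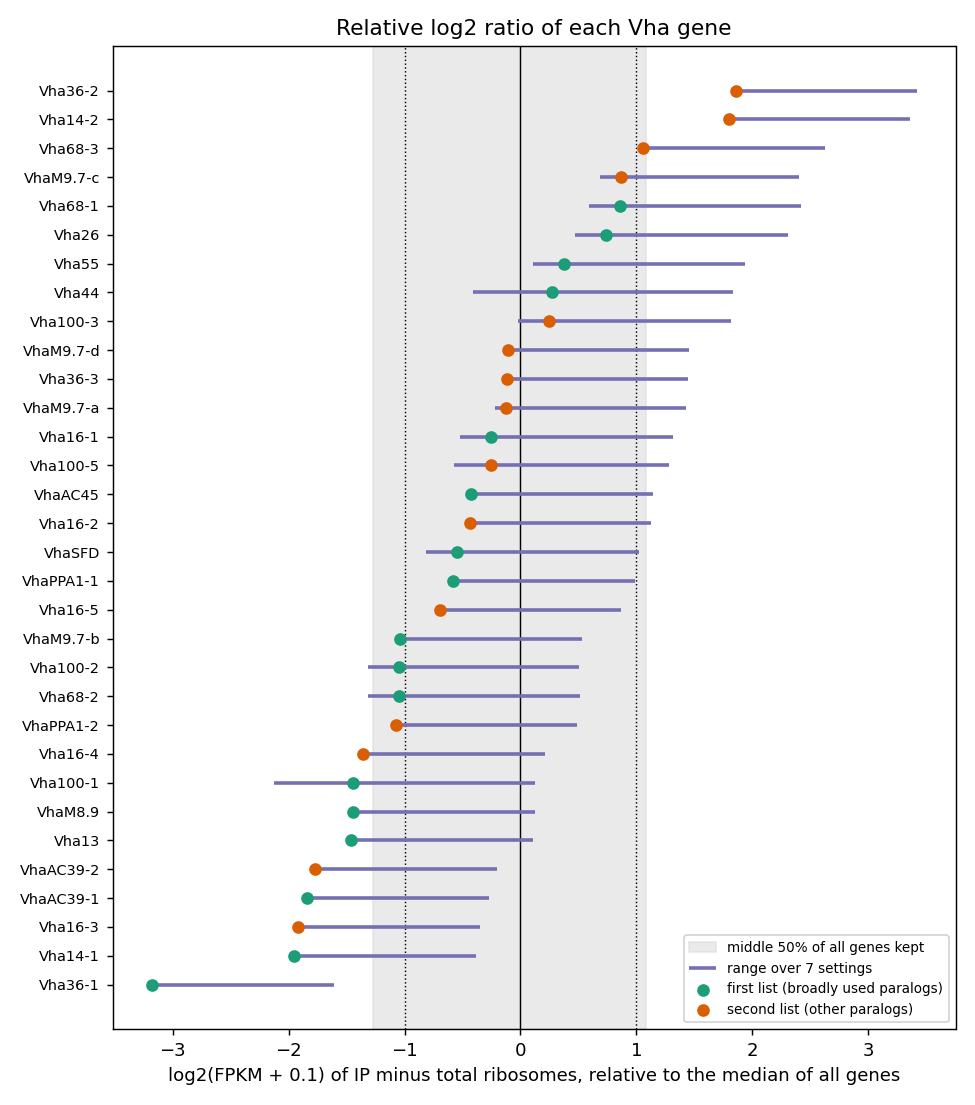
Relative log2 ratio of the 32 Vha genes with a mean of at least 1 FPKM (dots; horizontal axis, log2 units), coloured by list. Purple lines span 7 settings of scaling and pseudocount, the grey band spans the middle 50% of all such genes (−1.27 to 1.08) and dotted lines mark the thresholds. Only Vha36-2 and Vha14-2 lie above the band. With TPM scaling, at the right end of the lines, 8 of the 13 genes called lower lie above 0.

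Across the families, the leading paralog differed between the groups in 5 of the 8 subunits with more than 1 gene (A, D, F, c and e) and was the same in the other 3 (a, c″ and d). In subunit F the lead in the βNACtes IP was by 1.02 times only, and in subunit A the lead in total ribosomes was by 1.00 times, so these leads rest on values that lie next to each other. Among the 31 pairs of paralogs with a mean of at least 1 FPKM for both genes, 14 had log2 ratios that differed by at least 1 (45.2%), against 68.4% of all pairs of genes. The order of levels was opposite in the groups for 6 of the 31 pairs (19.4%), against 20.9% of all pairs of genes. Neither share exceeded that over all pairs of genes, and the differences in subunits D and F stand beside pairs such as VhaAC39-1 and VhaAC39-2. Pairs share genes, so they are not independent of each other.

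The members were also split by what is known of their use in flies. A first list held 17 genes taken as the broadly used subunits (such as Vha68-2, Vha55, Vha36-1, Vha14-1 and Vha16-1), and the second held the other 16 genes, all paralogs. The first list includes the 7 single-gene subunits and accessory genes, so the lists do not compare paralogs alone. It also holds Vha100-1, described above by its role at synapses. The lists were drawn up with results of these data known. In the first list 9 of 17 genes were called lower and 0 higher, with a median relative log2 ratio of −1.04. In the second, 4 of 15 with a mean of at least 1 FPKM were lower and 3 higher, with a median of −0.12. Over all genes 26.4% were called higher and 29.2% lower, and the shares of the second list, 20.0% and 26.7%, lay near these. The sum of the first list was 1309 FPKM in total ribosomes and 1034 FPKM in the βNACtes IP, and that of the second was 584 and 812 FPKM. The median of the second list was higher by 0.92, but by only 0.50 relative to genes of like mean value and 0.53 among genes with a mean of at least 10 FPKM. The lists overlapped widely, from −3.18 to 0.86 in the first and from −1.92 to 1.86 in the second. The V1 genes had a median of 0.27 (3 higher and 4 lower of 13) and the V0 genes one of −0.70 (0 higher and 8 lower of 17). The V1 shares, 23.1% higher and 30.8% lower, lay near those of all genes.

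**Figure D4:**
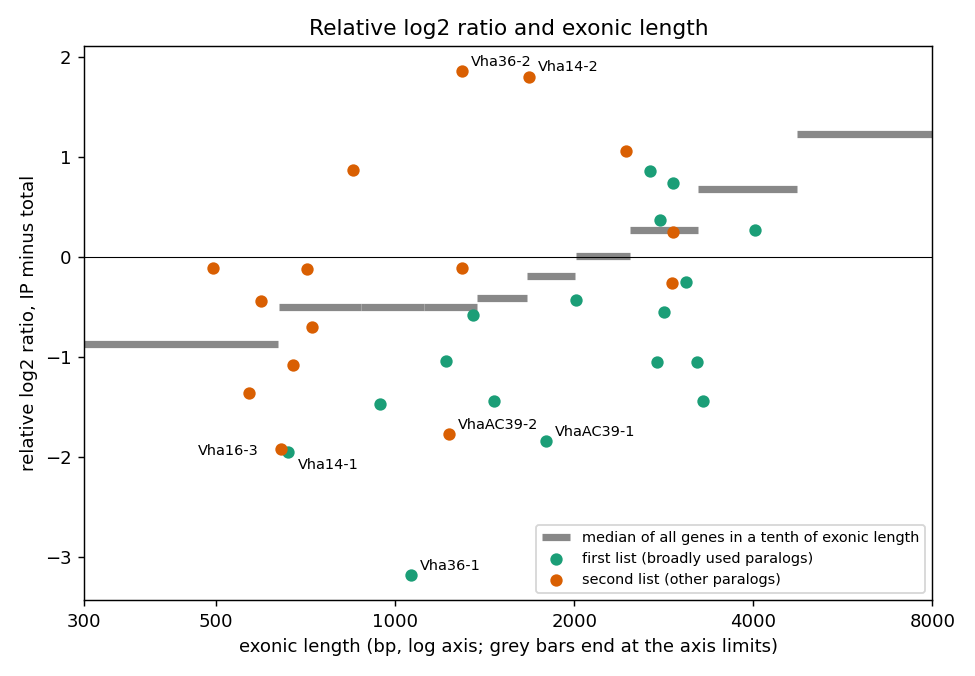
Relative log2 ratio (vertical axis, log2 units) against exonic length (horizontal axis, bp, log scale) for the 32 Vha genes with a mean of at least 1 FPKM, coloured by list. Grey bars are medians of all genes in 10 bins of exonic length with nearly equal numbers of genes and rise from −0.87 to 1.23. Vha36-1 and Vha36-2 have similar lengths and lie at opposite ends.

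Exonic length moved with the ratio over all genes, with a Spearman's rho of 0.33 across 9741 genes, and of 0.30 across the 32 members. Genes within 1 table share its libraries and are not replicates. The median of all genes was −0.87 in the shortest of 10 bins (76 to 636 bp) and 1.23 in the longest (4736 to 58996 bp). The members had a median exonic length of 1468 bp, against 1665 bp for all genes. Taken relative to genes of like exonic length, the median of the members was −0.46, with 4 higher and 9 lower, against 25.2% and 27.3% of all genes on this scale. Vha36-1 (1064 bp) was then at −2.68 and Vha36-2 (1296 bp) at 2.36, so this difference was as large. Vha14-1 (659 bp) and Vha14-2 (1677 bp) differ more in length, and were at −1.45 and 1.99. The first list is the longer one, with a median of 2677 bp against 1040.5 bp in the second, and the medians of the lists were −0.81 and 0.38 on this scale.

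Exons of 6 members overlap those of another gene, always on the opposite strand. Apart from Vha16-2, the largest overlap was 527 bp of Vha100-5 (18.1% of its exonic length) with an antisense RNA, CR44144, that was listed at 6.66 FPKM in total ribosomes and 70.7 FPKM in the βNACtes IP. The overlaps of Vha44, Vha100-1, Vha100-4 and VhaPPA1-2 were 11 to 148 bp. The part of these overlaps in the values was not tested.

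Of 20 other genes that assemble, regulate or work beside the pump, 17 were found in the table. Of these 17, 2 were called higher and 6 lower, with a median relative log2 ratio of 0.08. These are 11.8% and 35.3%, against 26.4% and 29.2% of all genes. Of the 6 genes called lower, 4 encode proteins of the lysosomal lumen. The protease gene CtsB1 went from 377 to 81.6 FPKM (−2.94) and the cholesterol carrier gene Npc2a from 324 to 100.5 FPKM (−2.42). The protease gene cathD went from 220 to 83.3 FPKM (−2.13) and the protease gene Cp1 from 225 to 174 FPKM (−1.10), though with TPM scaling Cp1 lay above 0 (0.47). The others were the chloride channel gene ClC-b (−1.75) and dor (−1.43), a gene of vesicle fusion at the lysosome, which lay above 0 (0.12) with TPM scaling. Called higher were car, which acts in the same fusion complex as dor and went from 0.91 to 4.63 FPKM (1.50), and the chloride channel gene ClC-c, which went from 1.97 to 7.20 FPKM (1.09). Both had low levels, and with a pseudocount of 1 neither was called. The mean of car reached 1 FPKM only through the βNACtes IP, and so did those of Rbcn-3A, Rbcn-3B and Mitf. The relative log2 ratios of these 3 genes (0.24, 0.92 and 0.72) count in the median of 0.08. Rbcn-3A and Rbcn-3B, which promote the assembly of V1 on V0, and Mitf, a transcription factor that activates V-ATPase genes in flies, were listed at 0.59 to 0.985 FPKM in total ribosomes and at 2.02 to 2.06 FPKM in the βNACtes IP, below almost all Vha genes.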

How the data were processed

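RNA of 3 βNACtes IP and 2 total ribosome libraries from testes was sequenced by the authors, who deposited FPKM averaged over the libraries of each group. The file names no unit. The submitters' processing notes list Cufflinks 2.2.1, TopHat2 2.0.14, Bowtie2, TopHat, Bowtie and the build dm3, with no roles. FPKM was taken as the unit because Cufflinks gives it and because values times exonic length sum to nearly the same total (βNACtes IP, 1109951, and total ribosomes, 1114286), while the plain sums are 802728 and 1435535. The deposited log2 ratios of the authors' comparison were not used. The annotation they used, the strand setting and how multiply mapped reads were handled are not given in the sources used here. Depth is unknown, since only means were analysed.

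Chromosome arms, exonic lengths, exon numbers, protein lengths, neighbours and overlaps were read from Ensembl release 115 (BDGP6), a later build than dm3, so no coordinates are given. Of the 33 Vha genes, 32 matched by identifier and 1 (Vha44) by symbol, and of all 12847 rows, 85 matched neither way. No sequences were used here.

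Genes with a mean of at least 1 FPKM were kept, with a pseudocount of 0.1 FPKM and a threshold of 1 (log2). No p-value was computed, since each group has 1 mean. Members and lists were chosen with earlier results of these data known. Every Vha gene may be named, and other genes only from the pathway list or the marker lists (germline, cyst and hub, muscle, accessory gland). How often calls made from the deposited means are wrong was not tested. Alternatives were 5 other scalings (as deposited, TPM, upper quartile, relative to genes of like length or of like mean), no filter or one of 10 FPKM, a pseudocount of 1, members without overlaps, and shares of reads. Calculations used pandas 2.3.3, scipy 1.17.1 and numpy 2.4.6 in Python 3.11.15, and plots matplotlib 3.10.9.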

Additional observations from a re-analysis of the deposited data

How the results depend on the processing

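Calls at a fixed threshold depended on the scaling, since the median of all genes moved with it. Shares within a subunit are the same under any scaling of the columns. The Vha genes called higher numbered 3, and 8 with the columns as deposited, 17 with TPM scaling, 5 with upper-quartile scaling and 2 without a filter. Those called lower numbered 13, and 5 as deposited, 1 with TPM scaling, 9 with upper-quartile scaling or a pseudocount of 1 and 14 without a filter. Their median was −0.49, and 0.24 as deposited, 1.07 with TPM scaling, −0.25 with upper-quartile scaling, −0.46 and −0.55 relative to genes of like length and of like mean value, −0.68 without a filter, −0.42 with a mean of at least 10 FPKM, −0.40 with a pseudocount of 1 and −0.55 without overlapping members. Genes called lower that lay above 0 with TPM scaling were Vha68-2 (0.51), Vha13 (0.11), Vha100-1 (0.12), Vha100-2 (0.51), Vha16-4 (0.21), VhaPPA1-2 (0.49), VhaM9.7-b (0.53) and VhaM8.9 (0.13). These shifts follow from the scale itself. All genes had a median of 0.73 as deposited, 1.55 with TPM scaling and 0.25 with upper-quartile scaling. The median of the Vha genes lay below that of all genes in each.

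The second list exceeded the first by a median of 0.92, and by 0.90 with TPM scaling, 1.19 and 0.50 relative to genes of like length and of like mean value, 0.85 without a filter, 0.53 with a mean of at least 10 FPKM, 0.82 with a pseudocount of 1 and 0.93 without overlapping members. Other pathway genes called higher numbered 2, and 6 as deposited, 10 with TPM scaling, 5 with upper-quartile scaling, 1 relative to genes of like length, of like mean value or without a filter, and 0 with a mean of at least 10 FPKM or a pseudocount of 1. Those called lower numbered 6, and 1 with TPM scaling and 3 with a mean of at least 10 FPKM. The alternatives for the second list and the pathway genes were chosen after seeing the data. The leading paralog differed between the groups in 5 of 8 subunits, in 4 of 8 by share of reads (value times exonic length) and in 5 of 7 without overlapping paralogs. By share of reads the 4 were A, D, F and c″, where VhaPPA1-1 led in the βNACtes IP with 53.8%, while Vha16-1 led c and VhaM9.7-b led e in both groups, with 59.2% and 53.3% in the βNACtes IP. No paired analysis was possible because the table holds 1 mean per group, and for the same reason no library could be left out.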
